A study of Sus scrofa with 4 samples.

Results

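The genes described here were 7 chemokine ligand genes, CCL2, CXCL2, CXCL8, CXCL12, CXCL14, CXCL16 and CX3CL1, together with CSF1, which encodes a macrophage growth factor. They were taken by symbol from the protein-coding rows of the expression tables, and all 8 had a row among 16192 protein-coding genes. The series followed porcine subcutaneous preadipocytes as they became adipocytes in culture, with RNA sequencing of 4 stages named D0, D2, D4 and D8 for the day of differentiation. The cells came from male Chinese Erhualian pigs, piglets of 5 days of age, and RNA of 3 piglets was pooled in equal amounts at every stage, so that each stage was 1 library. D0 was the confluent culture before any hormone. D2 followed 2 days of a cocktail of dexamethasone, 3-isobutyl-1-methylxanthine and insulin. D4 followed 2 further days in medium with insulin, and D8 came after a return to growth medium without added hormone. All 4 stages shared fetal bovine serum in the medium and the same animals, and the cells were a primary stromal fraction rather than a clonal line. With 1 pooled library per stage, the spread between animals or cultures was not measured, and no test between stages was possible.

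Chemokines are small secreted or membrane-anchored proteins that bind G protein-coupled receptors on leukocytes and guide their movement into tissue. Stromal cells of fat, including preadipocytes, are a known source of them, and several chemokine genes are known targets of the transcription factor NF-kB and are repressed by glucocorticoids such as dexamethasone. CXCL12 and CXCL14 belong to the chemokines made by stromal cells without an inflammatory stimulus, whereas CCL2, CXCL2 and CXCL8 are best known as genes switched on by inflammation.

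Levels are given in FPKM, the fragments of a gene scaled to its transcript length and to the size of the library, so that genes can be compared with each other. Bounds in parentheses are exact 95% intervals from the fragments behind a value, as recovered from the FPKM, Poisson for a level and Clopper-Pearson for a ratio. They cover counting error only, since reads without molecular identifiers are not independent molecules. The FPKM values were scaled to totals of 54128151 to 75387428 fragments per library, and 3 fragments of CCL2 at D0 corresponded to 0.0535 FPKM. The share of fragments from signal recognition particle RNA was 12.4% at D0 and 12.5% at D4, against 17.1% at D2 and 16.5% at D8. A gene was called reliably expressed where 3 or more of the 4 libraries reached 1 FPKM, and it was said to rise or fall where it met that rule and the ratio of 2 libraries was at least 2. Log2 ratios were taken of FPKM + 0.01, which understates the change of genes near 0, whereas folds and their counting intervals are plain ratios.

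The 8 genes spanned the range from barely detected to very abundant. CCL2, CXCL14, CXCL16 and CSF1 were reliably expressed, which is 4 of 8, and CXCL2, CXCL8, CXCL12 and CX3CL1 were not. CXCL14 at D2 had the highest level of any of them, at 154 FPKM and rank 349 of 16192 protein-coding genes, and CX3CL1 at D8 had the lowest, at 0.0603 FPKM. The genes took 3 shapes over time. CCL2, CXCL8, CXCL16 and CSF1 were highest at D0, CXCL14 and CXCL2 were highest at D2, and CXCL12 and CX3CL1 were highest at D4. For CXCL2 the D2 interval overlapped those of D0 and D4.

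**Figure D1:**
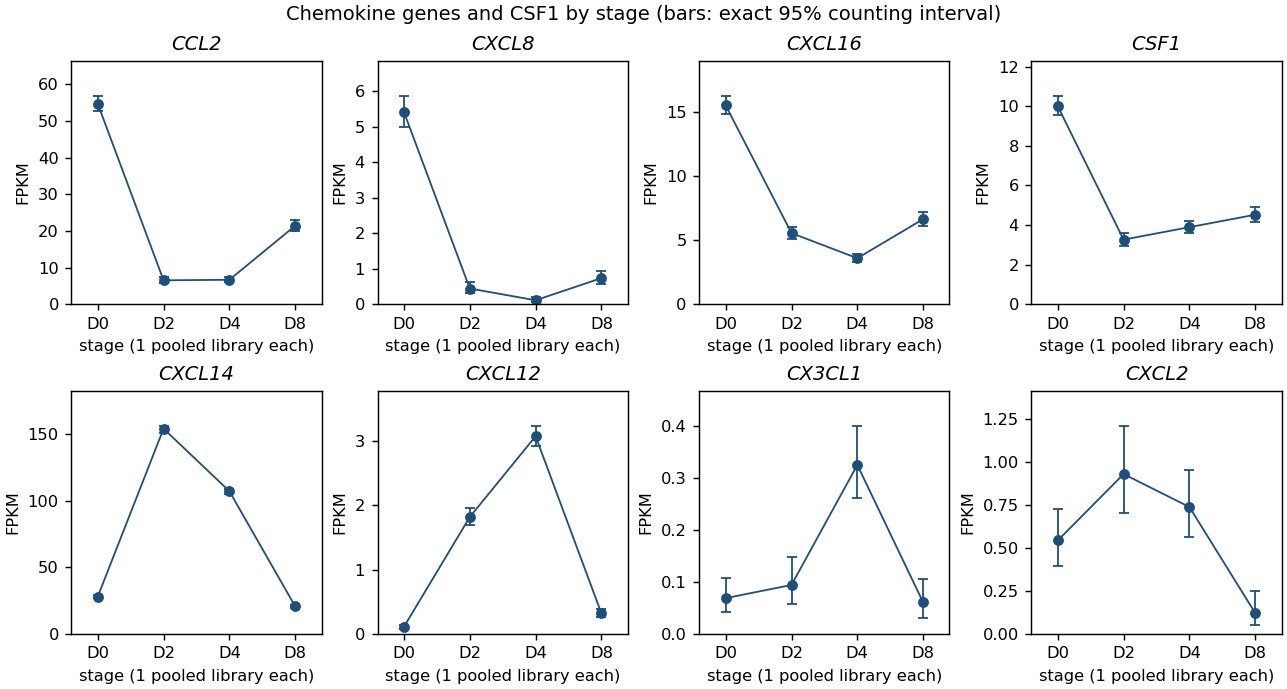
FPKM (y axis, linear from 0, own scale per panel) of the 8 genes at D0, D2, D4 and D8 (x axis), 1 pooled library per point, with bars for the exact 95% counting interval. The upper 4 genes peak at D0, at 54.7 FPKM for CCL2, and the lower 4 peak at D2 or D4, at 154 FPKM for CXCL14 and 3.08 FPKM for CXCL12.

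CCL2, the main attractant of monocytes and the ligand of the receptor CCR2, lies on chromosome 12 of Sscrofa11.1 at bases 40798109 to 40800013, on the minus strand. The D0 level was 54.7 FPKM (52.8 to 56.7), followed by 6.50 (5.74 to 7.33) at D2, 6.65 (5.99 to 7.37) at D4 and finally 21.4 (20.0 to 22.9) at D8, from 3070, 266, 368 and 861 fragments. The D0 library stood above all others, the D2 and D4 libraries could not be separated by their counting intervals, and D8 lay between. CCL2 fell 8.42-fold from D0 to D2, a log2 ratio of -3.07 (-3.26 to -2.89). It rose 3.21-fold from D4 to D8, at a log2 ratio of 1.68 (1.51 to 1.86), and at D8 it was still 2.56-fold below D0. As these are bulk libraries, fewer cells of a type and less RNA per cell cannot be told apart, here and for each gene that follows.

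CXCL8, also known as IL8, and CXCL2 both attract neutrophils through the receptor CXCR2, and their genes lie 221391 bases apart on the plus strand of chromosome 8, at 69932646 to 69935861 and 70157253 to 70159145. CXCL8 measured 5.41 FPKM (4.98 to 5.85) in the D0 library, 0.440 (0.308 to 0.610) in D2, 0.109 (0.0561 to 0.190) in D4 and 0.733 (0.558 to 0.946) in D8, from 606, 36, 12 and 59 fragments. Only the D0 library was above 1 FPKM, so CXCL8 was not reliably expressed. Its log2 ratio to D0 was -3.59 (-4.15 to -3.13) at D2 and -5.51 (-6.60 to -4.82) at D4, and its 49.8-fold distance between highest and lowest library was the widest of the 8 genes. From D4 to D8 its level was 6.75-fold higher, with the D8 level still 7.37-fold below D0.

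CXCL2 showed a different order of stages. Its D0, D2, D4 and D8 levels were 0.543 FPKM (0.394 to 0.729), 0.930 (0.701 to 1.21), 0.738 (0.562 to 0.952) and 0.120 (0.0484 to 0.248), from 44, 55, 59 and 7 fragments. The counting intervals of the D0, D2 and D4 levels overlapped, and the D8 library was apart from the rest. The log2 ratio was 0.77 (0.18 to 1.38) from D0 to D2, under 2-fold, and -2.52 (-3.99 to -1.48) from D4 to D8. CXCL2 stayed under 1 FPKM in all 4 libraries. It belongs to a cluster of related chemokine genes, and how reads matching more than 1 copy were counted is not given in the sources used here, so its level is uncertain.

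CXCL16, a membrane-anchored chemokine that is released by proteases and that also serves as a scavenger receptor, lies on the plus strand of chromosome 12 at 52145100 to 52150267. It started from 15.5 FPKM (14.8 to 16.2) at D0, and the D2, D4 and D8 libraries held 5.54 (5.07 to 6.03), 3.58 (3.26 to 3.92) and 6.63 (6.12 to 7.18), from 2003, 523, 457 and 617 fragments. CXCL16 fell 2.79-fold from D0 to D2 and was 4.32-fold lower at D4 than at D0, with log2 ratios of -1.48 (-1.62 to -1.34) and -2.11 (-2.26 to -1.96). The step from D4 to D8, a log2 ratio of 0.89 (0.71 to 1.07), was upward but under 2-fold, though past it at 1.10 when libraries were scaled by the median ratio of all genes, and D8 lay 2.33-fold below D0.

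CSF1, the growth and survival factor of macrophages, lies on the minus strand of chromosome 4 at 110178466 to 110198232. Its level was 10.0 FPKM (9.58 to 10.5) before induction and 3.26 (2.96 to 3.59), 3.89 (3.61 to 4.20) and 4.52 (4.16 to 4.90) in the D2, D4 and D8 libraries, from at least 1802, 427, 689 and 582 fragments. CSF1 fell 3.08-fold from D0 to D2, a log2 ratio of -1.62 (-1.78 to -1.47). The next steps were small, at log2 ratios of 0.25 (0.08 to 0.43) from D2 to D4 and 0.21 (0.05 to 0.38) from D4 to D8. The D8 library remained 2.22-fold below D0, at a log2 ratio of -1.15 (-1.29 to -1.02) that fell just short of 2-fold when libraries were scaled by the median ratio of all genes. Among the 4 genes highest at D0, CSF1 had the narrowest range, 3.08-fold between highest and lowest library.

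CXCL14, a chemokine made constitutively by stromal and epithelial cells, lies on the minus strand of chromosome 2 at 137803988 to 137813118. It measured 27.8 FPKM (26.9 to 28.8) in D0, 154 (151 to 156) in D2, 107 (105 to 109) in D4 and 20.5 (19.6 to 21.5) in D8, from 3609, 14534, 13641 and 1910 fragments. The D2 and D4 libraries were high and the D0 and D8 libraries low. CXCL14 rose 5.52-fold from D0 to D2, at a log2 ratio of 2.46 (2.41 to 2.52), and fell 5.20-fold from D4 to D8, at -2.38 (-2.45 to -2.31). At D8 its log2 ratio to D0 was -0.44 (-0.52 to -0.36), under 2-fold.

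CXCL12, the ligand of CXCR4 that holds blood and progenitor cells in their niches, lies on the plus strand of chromosome 14 at 91516383 to 91543857. The libraries D0, D2, D4 and D8 held 0.108 FPKM (0.0808 to 0.140), 1.82 (1.69 to 1.96), 3.08 (2.93 to 3.24) and 0.316 (0.261 to 0.380), from 54, 667, 1528 and 114 fragments. The D2 and D4 libraries were above 1 FPKM and the D0 and D8 libraries below it, so that CXCL12 missed the rule for reliable expression by 1 library. The D4 level was 28.7-fold above D0, with a counting interval of 4.45 to 5.26 on the log2 scale, and 9.76-fold above D8. At D8 the level was 2.94-fold above that of D0.

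CX3CL1, or fractalkine, a chemokine on a membrane stalk, lies on the plus strand of chromosome 6 at 19312351 to 19324439. Its levels were 0.0685 FPKM (0.0413 to 0.107), 0.0939 (0.0566 to 0.147), 0.325 (0.261 to 0.400) and 0.0603 (0.0311 to 0.105) at D0, D2, D4 and D8, from 19, 19, 89 and 12 fragments. The D4 library was above the rest, whose counting intervals overlapped. D4 over D0 gave a log2 ratio of 2.09 (1.52 to 3.05). No library reached 1 FPKM.

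The 5 comparisons of stages follow, of which D2 vs D0, D4 vs D0 and D8 vs D0 share the D0 library. Between D2 and D0, CXCL14 rose and CCL2, CXCL16 and CSF1 fell, which is 1 and 3 of the 4 reliably expressed genes, where 6.67% of 9191 reliably expressed protein-coding genes were at least 2-fold higher and 10.1% at least 2-fold lower. Between D4 and D2 none of the 4 reached 2-fold in either direction, against 4.24% and 0.838% of all genes. Between D8 and D4, CCL2 rose and CXCL14 fell, beside 4.43% and 10.1% of all genes. The ratio of D4 to D0 had CXCL14 higher and CCL2, CXCL16 and CSF1 lower, with 10.4% higher and 8.81% lower among all genes. At D8 none of the 4 was 2-fold above D0, and CCL2, CXCL16 and CSF1 were at least 2-fold below it (CCL2 and CXCL16 alone with the median-ratio scaling), where 3.60% of all genes were higher and 3.68% lower.

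Without the rule on low values all 8 genes entered the counts. CXCL12 and CXCL14 were then at least 2-fold higher and CCL2, CXCL8, CXCL16 and CSF1 at least 2-fold lower at D2 than at D0, where the shares of all genes were 13.3% and 17.9%. CX3CL1 was higher and CXCL8 lower at D4 than at D2, with 13.0% and 6.58% of all genes. From D4 to D8 CCL2 and CXCL8 were higher and CXCL2, CXCL12, CXCL14 and CX3CL1 lower, with 11.4% and 17.4% of all genes. D4 against D0 had 3 genes higher, CXCL12, CXCL14 and CX3CL1, and 4 lower, CCL2, CXCL8, CXCL16 and CSF1, with 18.2% and 15.2% of all genes. D8 against D0 had CXCL12 higher and CCL2, CXCL2, CXCL8, CXCL16 and CSF1 lower, with 11.0% and 11.7% of all genes. The median log2 ratio of the 8 genes was -0.54 at D2, -0.46 at D4 and -1.19 at D8 relative to D0, where the medians over all genes were -0.04, 0.09 and -0.17. The medians of the 8 genes lay below 0 while single genes reached log2 ratios of 4.72 and -5.51, since the genes moved in both directions.

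**Figure D2:**
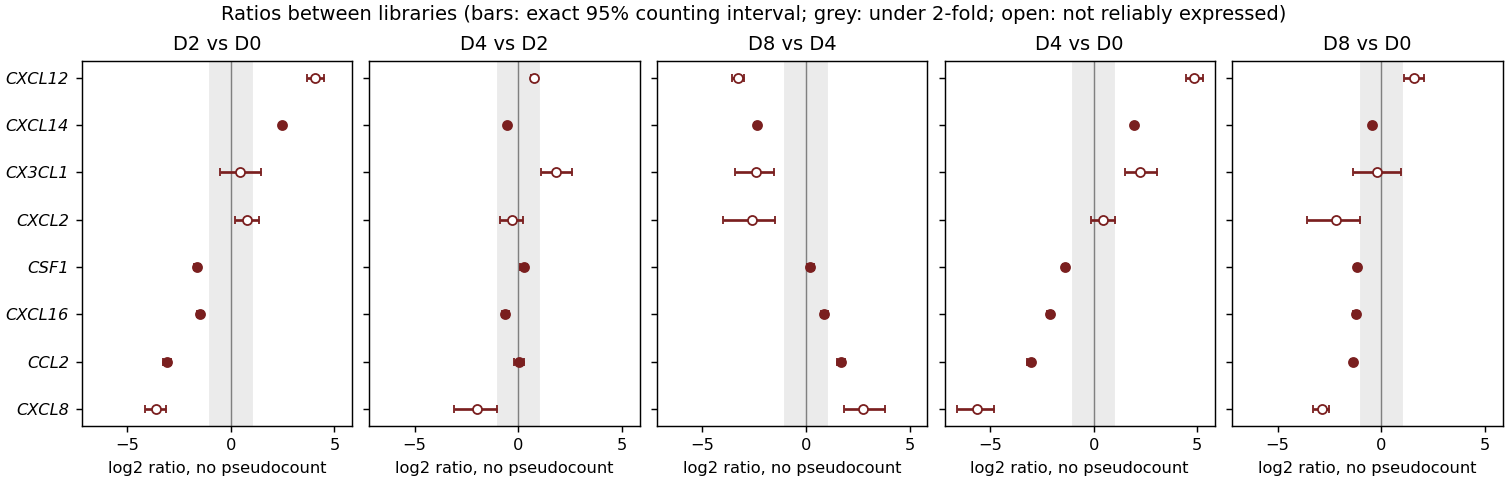
Log2 ratio of FPKM without pseudocount (x axis) for the 8 genes (y axis) in the 5 comparisons (panels), with bars for the exact 95% counting interval, a grey band for ratios under 2-fold, filled points for reliably expressed genes and open points for the others. In D2 vs D0 and D4 vs D0, CXCL12 and CXCL14 lie right of the band and CCL2, CXCL8, CXCL16 and CSF1 left of it, while in D8 vs D4 CCL2 and CXCL8 lie right of it and CXCL14 and CXCL12 left.

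Because FPKM is divided by length, the genes can also be ranked within a library. At D0 the order was CCL2, CXCL14, CXCL16, CSF1, CXCL8, CXCL2, CXCL12 and CX3CL1, and only the last pair had overlapping counting intervals. At D2 and D4 CXCL14 came first, at 154 and 107 FPKM, and CCL2 followed at 6.50 and 6.65 FPKM. The counting intervals of CCL2 and CXCL16 overlapped at D2, as did those of CSF1 and CXCL16 at D4. CXCL12, in the last pair at D0, came behind 4 genes at D2 and D4 at 1.82 and 3.08 FPKM, and CXCL8, above CXCL2 and CXCL12 at D0, was last at D4. At D8 CCL2 and CXCL14 had overlapping intervals at 21.4 and 20.5 FPKM, and CXCL2 and CX3CL1 were the lowest pair.

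Chemokine ligands outside the 8 genes were read from a list of 37 symbols, of which 14 had a row and 2 were reliably expressed, CCL19 and AMCF-II. CCL19, the ligand of CCR7, measured 2.36, 151, 40.6 and 19.8 FPKM at D0, D2, D4 and D8. AMCF-II, a neutrophil attractant listed as CXCL6 in the RefSeq annotation, measured 69.0, 53.4, 6.30 and 4.12 FPKM. It lies between CXCL8 and CXCL2, 72363 bases from the former and 146892 from the latter, and shares 40 bases with the antisense lncRNA MSTRG.79318, which measured 1.12, 0.723, 0.496 and 0.0358 FPKM. CXCL8, AMCF-II and CXCL2 thus shared a stretch of chromosome 8 and differed in their order of stages. CXCL8 was lowest at D4, whereas AMCF-II and CXCL2 were lowest at D8. CXCL8 and AMCF-II were highest at D0, and CXCL2 was highest at D2, with an interval overlapping those of D0 and D4. The other 12 ligands stayed at or below 1.22 FPKM. CCL11, the nearest ligand gene to CCL2 at 15246 bases, measured 0.559, 0.288, 0.284 and 0.292 FPKM.

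The 21 ligand genes with a row summed to 178, 378, 171 and 76.6 FPKM at D0, D2, D4 and D8, and the 7 chemokines described here made up 58.5%, 44.8%, 71.0% and 65.0% of it. CCL2 held 30.7%, 1.72%, 3.90% and 27.9% of these sums. CXCL14 held 15.6%, 40.7%, 62.5% and 26.8%. AMCF-II led at D0 with 38.7%. At D2 CXCL14 and CCL19 held like shares, the latter 40.0%, and at D4 CXCL14 led, with CCL19 at 23.8%. At D8 the shares of CCL2 and CXCL14 were close to each other and to the 25.8% of CCL19.

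**Figure D3:**
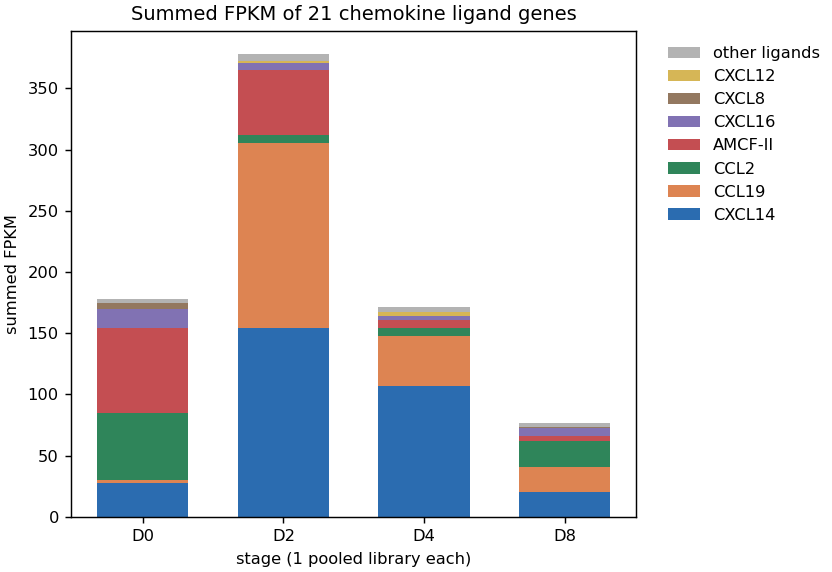
Stacked bars of the summed FPKM of 21 chemokine ligand genes (y axis, linear from 0) in the libraries D0, D2, D4 and D8 (x axis), coloured by gene, with ligands not named in the key joined as other ligands. The bar is tallest at D2, at 378 FPKM, where CXCL14 and CCL19 hold most of it, and shortest at D8, at 76.6 FPKM.

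Receptor genes were read in the same libraries. Of 23 receptor symbols, 12 had a row and 2 were reliably expressed, the scavenging receptors ACKR3 and ACKR4. ACKR3, which takes up CXCL12, measured 18.7, 22.8, 15.3 and 16.2 FPKM and stayed within 2-fold. ACKR4, which takes up CCL19, measured 4.69, 69.7, 92.9 and 69.6 FPKM and rose from D0 to each later stage. CXCR4, the signalling receptor of CXCL12, was between 0.241 and 0.539 FPKM, and CXCR2, the receptor of CXCL8 and CXCL2, was at 0 at D0 and D2 and at 0.0167 and 0.0153 FPKM at D4 and D8. The other 10 receptors stayed at or below 0.539 FPKM in every library, and CCR2, CXCR1, CXCR6 and CX3CR1 were not analysed here.

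Around CSF1, the receptor CSF1R measured 0.109, 0.104, 0.0434 FPKM at D0, D2 and D4 and was listed at 0 at D8. IL34, the other ligand of that receptor, measured 0.855, 1.26, 1.89 and 1.30 FPKM and rose from D0 to D4 at a log2 ratio of 1.13, while CSF1 was 2.58-fold lower at D4 than at D0. Of 7 colony-stimulating factor and receptor genes besides CSF1, 6 had a row and IL34 alone was reliably expressed.

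Proteases that release or trim these chemokines were all reliably expressed, 7 of 7, as were 9191 of all 16192 protein-coding genes. ADAM10 and ADAM17, which cut CXCL16 and CX3CL1 from the membrane, stayed within 2-fold, at 22.8 to 37.5 and 8.80 to 13.2 FPKM. DPP4, which inactivates CXCL12 by trimming its end, measured 8.64, 4.76, 2.57 and 4.86 FPKM. It was at least 2-fold lower at D4 than at D0, beside 8.81% of all genes. MMP2 measured 99.3, 371, 481 and 96.8 FPKM and MMP14 125, 271, 288 and 86.9 FPKM. Both rose from D0 to D2, beside 6.67% of all genes. MMP2, MMP14 and MMP9 were at least 2-fold lower at D8 than at D4, beside 10.1% of all genes. MMP9, at 4.15, 7.51, 3.89 and 1.48 FPKM, was also at least 2-fold lower at D8 than at D0, beside 3.68%. CTSK, at 192, 176, 223 and 292 FPKM, stayed within 2-fold.

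Genes of pathways known to act on chemokine transcription were counted next. For NF-kB and its inhibitors 15 of 18 genes were reliably expressed. None rose and 3 fell from D0 to D2, namely NFKB2, RELA and IKBKG, where 6.67% of all genes rose and 10.1% fell. The list median was -0.42 against -0.03 for all genes. From D0 to D4 NFKBIA, the inhibitor that holds NF-kB in the cytoplasm, rose from 25.2 to 74.7 FPKM, and IRAK1 and NFKB2 fell. Among all genes 10.4% rose and 8.81% fell. None of the 15 differed by 2-fold between D8 and D0, where 3.60% of all genes were higher and 3.68% lower. The list median was then -0.39 against -0.18 for all genes, and RELA was 1.98-fold below D0. NFKB2 measured 9.02, 3.52, 3.07 and 5.68 FPKM and RELA 4.69, 2.16, 3.29 and 2.37 FPKM.

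Among glucocorticoid targets 10 of 11 were reliably expressed, and 6 rose and none fell from D0 to D2, beside the same 6.67% and 10.1% of all genes, with a list median of 2.62 against -0.03. They were ZBTB16, KLF9, SGK1, TSC22D3, MT1A and FKBP5. ZBTB16 and MT1A, at 0.199 and 0.459 FPKM at D0, met the rule for reliable expression only through the later libraries, as did ZFP36 at 0.690. The same rule shut out genes above 1 FPKM at D0 alone, such as CXCL8. FKBP5, a co-chaperone of the glucocorticoid receptor, measured 4.88, 61.2, 77.4 and 38.6 FPKM, and TSC22D3, known as GILZ, measured 3.26, 33.5, 23.6 and 31.7 FPKM. All 6 were at least 2-fold above D0 at D4 and D8 as well, where 10.4% and 3.60% of all genes were higher. ZFP36 joined them at D4, where ANXA1, which encodes annexin A1, fell from 943 to 388 FPKM, beside 8.81% of all genes lower. CCL2 was lowest at D2 and D4, where ZBTB16, NR3C1, KLF9, SGK1, MT1A and FKBP5 were highest. The order of stages was another for DUSP1, TSC22D3, ANXA1 and ZFP36, with DUSP1 at 109, 99.3, 60.8 and 62.3 FPKM. From D4 to D8 CCL2 rose 3.21-fold. Of the 10 targets, ANXA1 then rose and ZBTB16, KLF9, MT1A and FKBP5 fell, beside 4.43% and 10.1% of all genes. The part of the hormone cocktail in the chemokine levels was not tested, since stage and medium changed together and cannot be told apart.

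**Figure D4:**
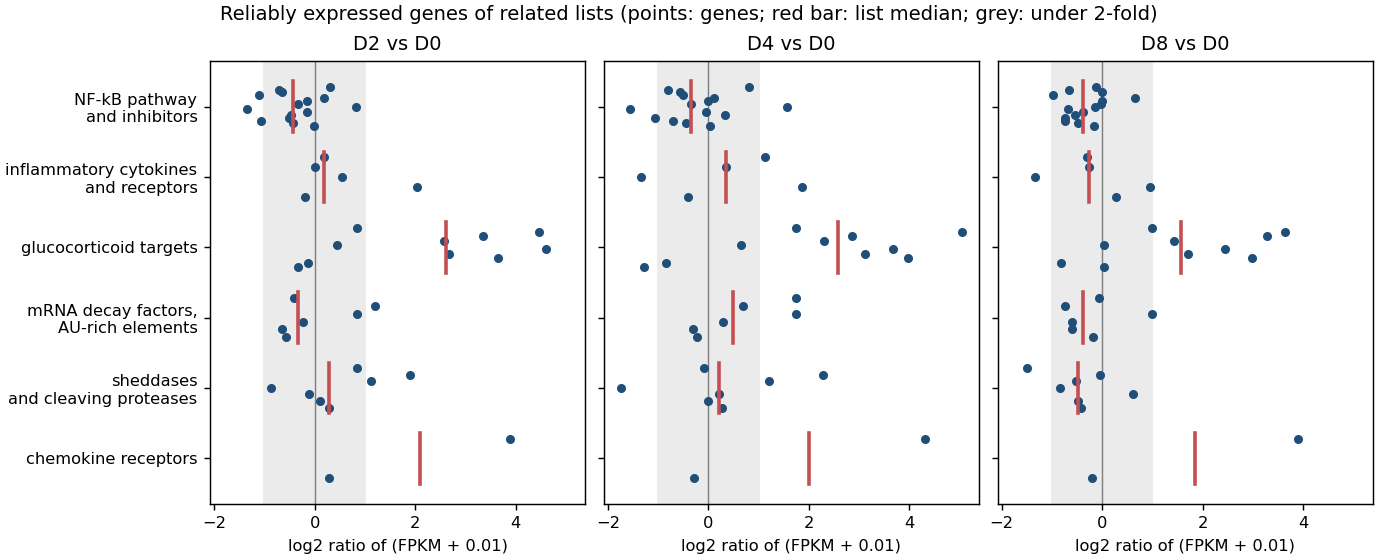
Log2 ratio of FPKM + 0.01 (x axis) for the reliably expressed genes of 6 related lists (y axis) in the comparisons with D0 (panels), each point a gene, with a red bar for the list median and a grey band for ratios under 2-fold. The glucocorticoid targets have the median farthest right among lists of 5 or more genes in all 3 panels, at 2.62 for D2, and the NF-kB list has a median left of 0 in each, at -0.42 for D2.

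Of inflammatory cytokines and receptors, 10 of 13 had a row and 5 were reliably expressed. IL6 measured 5.97, 8.71, 2.35 and 2.35 FPKM and fell from D2 to D4, a later step than that of CCL2. IL1R1, the receptor for interleukin 1, rose from 16.0 at D0 to 65.7 FPKM at D2. IL1A, LIF and PTGS2, which were not reliably expressed, had their highest level at D0, as CCL2 and CXCL8 did. IL1A measured 2.90, 0.216, 0.238 and 1.54 FPKM, and PTGS2, the inducible cyclooxygenase, 3.79, 0.896, 0.220 and 0.926 FPKM. Factors that degrade or stabilise mRNAs with AU-rich elements, which CCL2 and CXCL8 mRNAs carry, were reliably expressed in 6 of 6 cases. ZFP36, or tristetraprolin, measured 0.690, 1.25, 2.33 and 1.38 FPKM and was at least 2-fold higher at D4 than at D0, as was ZFP36L2. Among all genes 10.4% were. ZFP36L1 rose from 7.69 at D0 to 17.8 FPKM at D2, beside 6.67% of all genes. The list median for D2 vs D0 was -0.32 against -0.03 for all genes. ELAVL1, HNRNPD and KHSRP stayed within 2-fold in every comparison.

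Leukocytes also make several of these chemokines, and their markers were read from a list. Of 15 leukocyte and macrophage markers 12 had a row, with summed levels of 6.45, 12.2, 11.3 and 9.20 FPKM, of which CD14, a gene that stromal cells also express, was the highest in every library at 2.78 to 7.54 FPKM. The defining marker PTPRC was at 0.0562, 0.0175, 0.0104 and 0.0712 FPKM, and LYZ was at 0 in D0, D2 and D4. The macrophage markers CD163, at 0.270, 1.42, 1.01 and 1.38 FPKM, and C1QC, at 0.685, 2.77, 1.09 and 1.20 FPKM, rose from D0 to D2, and CD163 and CD14 rose from D0 to D4. TYROBP, not reliably expressed, went the other way, at 0.678, 0.155, 0.206 and 0.818 FPKM, whereas CD68 was lowest at D0, at 0.0108 FPKM. C1QA and C1QB changed by less than 2-fold from D0 to D2, and AIF1 was highest at D8, at 1.05 FPKM. The list median of 1.42 for D2 vs D0 covers 4 reliably expressed markers. CD163 and C1QC among them met that rule only through the D2, D4 and D8 libraries, so the median cannot show a rise of the list. The part of leukocytes in the chemokine levels was not tested. The 6 endothelial markers summed to 2.74, 1.16, 1.89 and 2.02 FPKM, most of it PECAM1, with VWF at 0 in all but D0 and CDH5 in all but D4. The 7 stromal markers summed to 2626, 3893, 3621 and 3155 FPKM and the 7 adipocyte markers to 121, 484, 1715 and 2066 FPKM. In the list of 5 mural and smooth muscle markers, ACTA2, at 2907, 324, 225 and 2762 FPKM, moved with CCL2 in being lower at D2 and D4, but at D8 its log2 ratio to D0 was -0.07 where that of CCL2 was -1.36. CSPG4 was at 3.85, 0.338, 0.516 and 2.72 FPKM. The other 3 stayed below 1 FPKM, with MCAM and MYH11 highest at D0 and RGS5 highest at D4, at 0.742 FPKM. Proliferation markers summed to 62.8, 5.95, 26.0 and 39.6 FPKM and were also highest at D0. The part of ACTA2-expressing, CSPG4-expressing or dividing cells in the chemokine levels was not tested.

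The genes whose pattern over the stages was closest to that of each reliably expressed gene were found as the smallest distance over the log2 ratios of D2, D4 and D8 to D0, among 8843 genes. For CCL2 they were THBS1, a secreted matrix protein, at a distance of 0.12, NEXN, an actin-binding protein, at 0.17, and FHL2, a LIM-domain protein, at 0.21. THBS1 measured 1689, 191, 212 and 621 FPKM. For CXCL16 they were TCEAL1, PEA15 and MAP1A at 0.11, 0.17 and 0.18, and for CSF1 they were the kinase PAK1 at 0.07, the urokinase PLAU at 0.11 and the homeobox factor MEIS1 at 0.13. PLAU measured 84.4, 28.4, 32.8 and 35.5 FPKM. No gene came as near to CXCL14. Its nearest were RIPOR3, LPCAT2 and the metallothionein gene MT-2B at 0.43, 0.53 and 0.56, with MT-2B at 5.41, 38.8, 25.3 and 4.93 FPKM.

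The noncoding RNAs of the same libraries were searched within 50 kb of the 8 genes. A total of 5 lncRNAs lay near CXCL2, CXCL8, CXCL16 and CSF1, and 2 of 8623 circRNAs lay near CXCL2 and CXCL16, whereas CCL2, CXCL12, CXCL14 and CX3CL1 had none. The nearest lncRNA to any of the 8 genes was LOC106504691, 520 bases from CXCL8 on the opposite strand, at 0, 0.00380, 0 and 0.0116 FPKM. MSTRG.105833 near CXCL16 was the most abundant, at 1.21, 2.05, 1.60 and 1.54 FPKM, and lay 37987 bases away. It spans another protein-coding gene, which is on the opposite strand. The circRNA near CXCL16, ssc_circ_0005895, was 38189 bases away and lies inside another protein-coding gene of the same strand. It measured 96.3 SRPBM (spliced reads scaled to the mapped reads of the library) at D0 and 47.5 at D4, and was listed at 0 at D2 and D8.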

How the data were processed

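The authors sequenced rRNA-depleted total RNA of the 4 pooled libraries, prepared with a directional kit, aligned the reads to Sscrofa11.1 with HISAT2 2.0.5 and used BWA for circRNAs, keeping those with at least 2 junction reads. The authors deposited 1 table per stage with FPKM for genes and lncRNAs and SRPBM, spliced reads scaled to the mapped reads, for circRNAs. The counter and the annotation release are not given in the sources used here.

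Gene rows were compared as deposited, with the study's rule for reliable expression (FPKM of at least 1 in at least 3 of 4 libraries) and its 2-fold ratio, on log2(FPKM + 0.01). With 1 library per stage no p-value was computed. Library totals and fragment numbers were recovered from the FPKM values, which are whole multiples of the value of 1 fragment: 92.3% of 6539 genes gave a whole length, 20155 of 20155 features above 0 in at least 2 libraries gave whole fragments, and these made up 98.9% to 99.1% of the totals. Fragment numbers are the smallest whole ones, so intervals are wide rather than narrow. The recovery was tested on simulated data. Poisson and Clopper-Pearson intervals came from scipy 1.17.1 under Python 3.11.15 with pandas 2.3.3, numpy 2.4.6 and matplotlib 3.10.9. The totals to which FPKM was scaled, a lower figure than the reads sequenced, were 75387428, 54987801, 74358922 and 54128151 fragments at D0, D2, D4 and D8.

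The genes and lists were chosen with earlier results of these data known. All 8 genes, any gene of the lists, the 3 genes nearest in pattern to each reliably expressed gene, and noncoding RNAs within 50 kb could be named. Alternatives were 2 pseudocounts, 2 scalings, 2 filters and a counting criterion. Promoter motifs were not run, as promoter sequence was not used here.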

Additional observations from a re-analysis of the deposited data

Results flagged for a closer look

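A circRNA that entered none of the comparisons of FPKM above overlapped CXCL2 and had a signal in 1 library. ssc_circ_0004320 spans 102223 bases of the plus strand of chromosome 8, from 70055390 to 70157612, and ends inside CXCL2. It measured 32.1 SRPBM at D0, from 5 junction reads (exact 95% Poisson interval 1.62 to 11.67). That interval includes 3 junction reads, which would give 19.3 SRPBM. It was listed at 0 at D2, D4 and D8, where the authors' minimum of 2 junction reads applied. Its other end lies inside LOC100525396 (70054796 to 70057033), a gene named after its values were seen, which measured 1.45, 0.181, 0.0891 and 0.0765 FPKM at D0, D2, D4 and D8.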

How the results depend on the processing

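Without the filter on low values, the count of genes at least 2-fold higher was 2 at D2 vs D0, 3 at D4 vs D0, 1 at D4 vs D2, 1 at D8 vs D0 and 2 at D8 vs D4, and the count lower was 1 at D4 vs D2, 5 at D8 vs D0 and 4 at D8 vs D4, since CXCL2, CXCL8, CXCL12 and CX3CL1 then entered. With median-ratio scaling 2 genes were higher at D8 vs D4, as CXCL16 joined CCL2, and 2 in place of 3 were lower at D8 vs D0, as CSF1 fell just short of 2-fold. That scaling moved the median of all genes by 0.21 at D8 vs D4 and 0.16 at D8 vs D0, and scaling by the protein-coding total moved it by 0.11 at D2 vs D0. With that last count included, 61 recomputed counts stayed within 1.5 times the values given, and no value past 2-fold changed sign. The log2 ratio of CCL2 for D4 vs D2, near 0 at 0.03, was -0.04 scaled by the protein-coding total and -0.06 with median-ratio scaling. Of single log2 ratios and medians, 136 stayed within the counting interval (medians within 0.2) and 44 moved beyond it, 23 of them with a pseudocount of 1 and 11 with median-ratio scaling. No paired analysis was possible because each stage was 1 pooled library, and for the same reason no replicate could be left out. Promoter motifs were planned and not run. Depth limited CXCL2, CXCL8 and CX3CL1, which had 7 to 89 fragments outside CXCL8 at D0.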
